A study of Rattus norvegicus with 12 samples.

Results

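Expression of 7 antioxidant genes was followed by RNA sequencing of rat coronary arterioles: the transcription factor gene Nfe2l2 and 6 enzyme genes, Sod1, Sod2, Cat, Hmox1, Nqo1 and Gclc. They were chosen by Ensembl gene ID as a group of known function, 7 of the 24600 IDs in the deposited count table, and 0 of the 7 IDs were missing. The vessels were coronary arterioles under 150 µm in diameter from female Fischer-344 rats. There were 4 libraries from untreated rats aged 3 months (young control), 4 from untreated rats aged 24 months (old control), and 4 from rats aged 24 months given one tail vein injection of 10000000 adipose-derived stromal vascular fraction cells at 23 months, 4 weeks before vessel collection (old SVF-treated). Stromal vascular fraction (SVF) is the mixed population of cells that remains when fat cells are removed from digested adipose tissue. Each RNA sample was a pool of at least 5 microvessels from within a group, so the p-values measure the spread between pools, which may be partly technical. No label ties a library to one animal.

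NRF2, the protein encoded by Nfe2l2, is held in the cytoplasm by KEAP1 and degraded until oxidants or electrophiles modify KEAP1. It then enters the nucleus, pairs with small MAF proteins and binds antioxidant response elements near its target genes, among which Hmox1, Nqo1 and Gclc are standard examples. Much of this control acts on the protein, which RNA sequencing does not measure. Superoxide dismutases convert superoxide, which also removes the vasodilator nitric oxide, to hydrogen peroxide, and catalase breaks hydrogen peroxide down.

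The libraries held 4068021 to 10821485 counts, and between 78 and 820 of the 12496 tested genes had no count in a library. Old SVF-treated replicate 2 had the most tested genes at 0 (820) and old control replicate 4 the next most (725). Their rank correlation to the rest was also the weakest (median Spearman rho 0.939 and 0.945). Young control replicate 3 and old control replicate 1 were named as doubtful in earlier work on these data, and Cat is also given without them. They had 323 and 78 tested genes at 0, and a median Spearman rho of 0.954 and 0.957. Whether the labelled tissue carried its defining markers was not checked, because no table used here pairs the other IDs with symbols. Levels are given as CPM, each count divided by a library size that TMM corrects for composition. CPM is not corrected for gene length, so levels are compared between libraries and not between genes. All 7 genes passed the filter on low counts.

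None of the 7 genes passed the test in any comparison, with adjusted p-values of at least 0.628 (edgeR quasi-likelihood test). Cat had 7 of 8 old libraries above the highest young library, the most of any member. At least 7 of 8 did so in 1.97% of all tested genes, by a rule chosen after the values were seen. Nfe2l2 and Sod1 were the steadiest genes, varying 1.34-fold between the lowest and the highest of 12 libraries, while Hmox1 varied 40.4-fold. Cat and Sod2 varied together from library to library, the highest correlation of 21 pairs examined after the values were seen. The permutation p adjusted over the 21 pairs was 0.0592 for Pearson's r and 0.0386 for Spearman's rho. The 6 enzymes showed no detectable relation to the Nfe2l2 transcript.

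**Figure D1:**
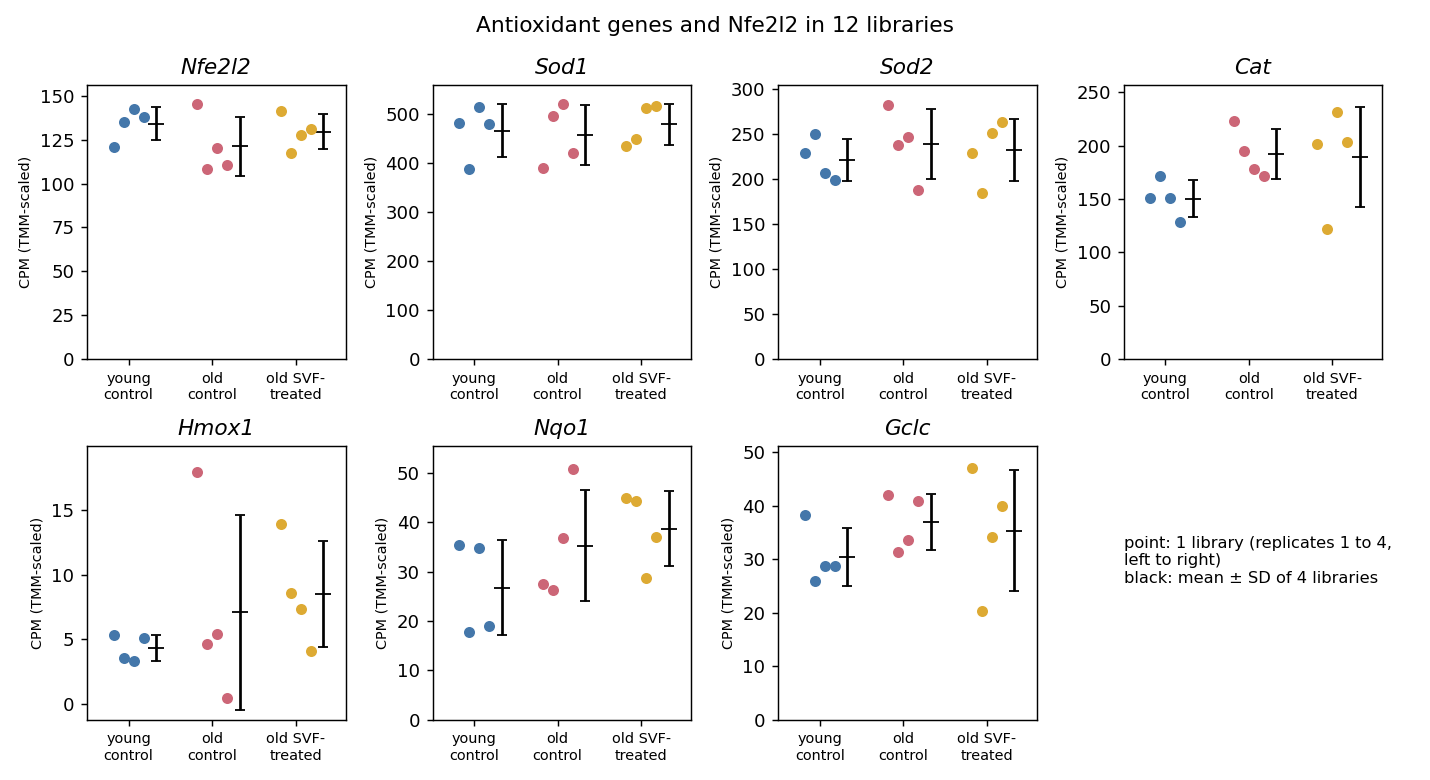
Level of each gene (CPM, vertical axis) in each of 12 libraries (points), by group, with the mean and SD of 4 libraries in black. Cat in old control lies just above Cat in young control (lowest 172.0 against highest 171.5 CPM), and Hmox1 spans 0.443 to 17.9 CPM within old control alone.

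Nfe2l2 (ENSRNOG00000001548), the regulator, was measured at 121, 135, 143 and 138 CPM in young control replicates 1 to 4. It was at 145, 108, 120 and 111 CPM in old control replicates 1 to 4, and at 142, 118, 127 and 131 CPM in old SVF-treated replicates 1 to 4. Old control replicate 1 was the highest of all 12 libraries and old control replicate 2 the lowest, so one group held both ends of the range. The group means were 134 ± 9.45 CPM for young control, 129 ± 9.94 for old SVF-treated and 121 ± 16.9 for old control (SD, n = 4), and neighbouring groups in this order overlapped. The ratio of old to young control was 0.905 (95% interval 0.741 to 1.10), a log2 fold change of -0.14 (SE 0.14, edgeR adjusted p = 0.9998). SVF-treated against old control gave a ratio of 1.07 (95% interval 0.875 to 1.30, edgeR adjusted p = 0.999). The counts behind these values were 538 to 1586 per library, so counting error added a coefficient of variation of about 3.23%. Over all 12 libraries the coefficient of variation was 9.86%.

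Sod1 (ENSRNOG00000002115) encodes the copper-zinc superoxide dismutase of the cytosol. It was at 482, 389, 516 and 479 CPM in young control replicates 1 to 4. Old control replicates 1 to 4 gave 391, 496, 521 and 421 CPM, and old SVF-treated replicates 1 to 4 gave 436, 450, 514 and 518 CPM. The groups lay on top of each other, with means of 467 ± 54.2 CPM in young control, 457 ± 61.6 for old control and 479 ± 42.3 for old SVF-treated (SD, n = 4). The log2 fold changes were -0.03 for old against young control (95% interval -0.33 to 0.27) and 0.07 for SVF-treated against old control (95% interval -0.23 to 0.37). On the linear scale the age interval ran from 0.796 to 1.21, so a change with age to beyond those limits lies outside it. Leaving out single libraries moved the age difference between -0.11 and 0.04 on the log2 scale.

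Sod2 (ENSRNOG00000019048) encodes the manganese superoxide dismutase of the mitochondrial matrix. Young control replicates 1 to 4 were at 229, 250, 206 and 198 CPM. Old control replicates 1 to 4 were at 282, 238, 247 and 188 CPM, and old SVF-treated replicates 1 to 4 at 229, 184, 251 and 264 CPM. The lowest value in each old group came from the libraries with the most undetected genes, old control replicate 4 and old SVF-treated replicate 2. Means were 221 ± 23.4 CPM in young control, 232 ± 34.8 in old SVF-treated and 239 ± 38.9 in old control (SD, n = 4), with overlap between all groups. Over the 12 libraries Sod2 had r = -0.521 with the log2 number of tested genes at 0 (permutation p = 0.0853, adjusted over 7 genes 0.199). The log2 fold change of old against young control was 0.11 (95% interval -0.21 to 0.43, edgeR adjusted p = 0.9998). SVF-treated against old control gave -0.04 (95% interval -0.36 to 0.28), which became 0.05 without old SVF-treated replicate 2 or without old control replicate 1.

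Cat (ENSRNOG00000008364) encodes catalase, which in most cells sits in peroxisomes. It was at 151, 171, 151 and 128 CPM in young control replicates 1 to 4. Old control replicates 1 to 4 were at 223, 195, 178 and 172 CPM, and old SVF-treated replicates 1 to 4 at 202, 122, 231 and 203 CPM. All 4 old control libraries lay above all 4 young control libraries, and 3 of 4 SVF-treated libraries did so too. Old SVF-treated replicate 2 was the exception and was the lowest of all 12.

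Mean Cat was 150 ± 17.6 CPM in young control, 192 ± 23.1 for old control and 190 ± 47.0 for old SVF-treated (SD, n = 4). The log2 fold change of old against young control was 0.35 (SE 0.17, 95% interval 0.00 to 0.70), a 1.28-fold higher level. This had an unadjusted p of 0.0495, and did not pass the correction over 12496 genes (edgeR adjusted p = 0.935). It was the single member of 7 whose old and young control libraries did not overlap, where 3.50% of all tested genes did not overlap in either direction. The gap between the highest young library (171.5 CPM) and the lowest old one (172.0 CPM) was smaller than the counting error of either. Their exact Poisson intervals were 160 to 183 CPM and 164 to 181 CPM. The groups were also apart by scaling to library totals (172.6 against 175.1 CPM) and by RLE size factors (171.2 against 172.2 CPM).

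SVF-treated libraries had Cat at 0.987 times the old control level (95% interval 0.775 to 1.26, edgeR adjusted p = 0.999), and 1.26 times the young level (95% interval 0.988 to 1.61, edgeR adjusted p = 0.712). Without old SVF-treated replicate 2, the log2 fold change against young control went from 0.33 to 0.49. The unadjusted p was then 0.00287 and the edgeR adjusted p was 0.330. It fell to 0.22 without old SVF-treated replicate 3 (edgeR unadjusted p = 0.224). With each library left out in turn it ranged from 0.223 to 0.494. For old against young control the range was 0.278 to 0.419. There the edgeR unadjusted p was 0.127 without young control replicate 4 and 0.13 without old control replicate 1. With both old groups taken as one mean against young control, the log2 fold change of Cat was 0.34 (SE 0.15, 95% interval 0.03 to 0.65). The unadjusted p was 0.0309 and the edgeR adjusted p was 0.628, the lowest of any member in any comparison. Without young control replicate 3 and old control replicate 1, Cat differed between old and young control by 0.29 on the log2 scale (unadjusted p = 0.141, edgeR adjusted p = 0.752). By unadjusted p over both old groups, Cat stood at rank 613 of 12496 genes. At least 7 of 8 old libraries lay above the highest young library in 246 genes, or 1.97% of those tested, and Cat was the member that did. That rule was chosen after the values were seen. In bulk vessels, more cells of a type that expresses a gene and more RNA per cell cannot be told apart.

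Hmox1 (ENSRNOG00000014117) encodes heme oxygenase 1, which degrades heme to biliverdin, iron and carbon monoxide and is strongly inducible by stress. It was the lowest counted of the 7, with 4 to 156 counts per library. Young control replicates 1 to 4 were at 5.31, 3.57, 3.35 and 5.12 CPM. Old control replicates 1 to 4 were at 17.9, 4.62, 5.40 and 0.443 CPM, and old SVF-treated replicates 1 to 4 at 13.9, 8.56, 7.37 and 4.12 CPM. Both untreated old libraries at the ends of the range stood well outside counting error. Old control replicate 1 had an exact Poisson interval of 15.04 to 21.15 CPM, and old control replicate 4, from 4 counts, of 0.121 to 1.14 CPM.

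Mean Hmox1 was 4.34 ± 1.02 CPM in young control, 7.09 ± 7.53 for old control and 8.49 ± 4.08 for old SVF-treated (SD, n = 4). The coefficient of variation was 23.5% among young, 106% among old control and 48.0% among SVF-treated libraries. The difference in spread between groups was not tested. The log2 fold change of old against young control was 0.71 (95% interval -0.73 to 2.14, edgeR adjusted p = 0.9998), and it was -0.31 without old control replicate 1. SVF-treated against old control gave 0.27 (95% interval -1.14 to 1.67, edgeR adjusted p = 0.999), and -0.13 without old control replicate 4. SVF-treated against young control gave 0.97 (95% interval -0.46 to 2.41, edgeR adjusted p = 0.833). Of 4 treated libraries, 3 lay above the highest young one, as for Cat and Nqo1. On the linear scale the age interval ran from 0.603 to 4.41, so the data leave the direction for Hmox1 undetermined.

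The highest Hmox1 levels fell in libraries with few undetected genes, and the lowest in one with many. Old control replicate 1 and old SVF-treated replicate 1 had 78 and 129 tested genes at 0, and old control replicate 4 had 725. Over 12 libraries, log2 CPM of Hmox1 and the log2 number of tested genes at 0 had a Pearson r of -0.600 (permutation p = 0.0328, adjusted over 7 genes 0.142). Spearman's rho was -0.552 (permutation p = 0.0664, adjusted 0.256), and r was -0.516 without the 2 libraries farthest from the median number. Old SVF-treated replicate 2, with the most genes at 0, was at 8.56 CPM. Young control replicate 1, with 112 tested genes at 0, was at 5.31 CPM. Among the other enzyme genes, Sod1 (r = 0.108, rho -0.0559) and Nqo1 (r = -0.0637, rho 0.182) showed no such relation, while Gclc and Sod2 had values like those of Hmox1. For Gclc r was -0.595 (rho -0.490, permutation p = 0.110), and for Sod2 r was -0.521 (rho -0.413, permutation p = 0.186). For Nfe2l2 r was -0.436 (rho -0.503, permutation p = 0.101), and for Cat r was -0.396 (rho -0.378, permutation p = 0.228). None of the 7 genes passed the adjustment. The part of this library difference in the levels of these genes was not tested.

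Nqo1 (ENSRNOG00000012772) encodes a quinone reductase and is a common readout of NRF2 activity. Young control replicates 1 to 4 were at 35.3, 17.9, 34.7 and 19.0 CPM, a split into a pair of higher and a pair of lower libraries. The lower pair were also the young libraries with the fewest total counts, 5288408 and 4068021. Old control replicates 1 to 4 were at 27.5, 26.2, 36.7 and 50.7 CPM, and old SVF-treated replicates 1 to 4 at 44.99, 44.3, 28.6 and 37.0 CPM.

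Group means of Nqo1 ran from 26.7 ± 9.60 CPM in young control through 35.3 ± 11.3 in old control to 38.7 ± 7.64 in old SVF-treated (SD, n = 4). All neighbouring groups overlapped. For Nqo1, as for Hmox1, 5 of 8 old libraries lay above the highest young one. The share of all tested genes with that count was not worked out. SVF-treated libraries were at 1.44 times the young level (95% interval 0.977 to 2.12), a log2 fold change of 0.53 (SE 0.27, edgeR adjusted p = 0.719). Old against young control gave 1.31-fold (95% interval 0.891 to 1.93, edgeR adjusted p = 0.9998). SVF-treated against old control gave 1.10-fold (95% interval 0.747 to 1.61, edgeR adjusted p = 0.999). These Nqo1 values moved with single libraries. On the log2 scale the age difference of 0.39 ranged from 0.17 (without old control replicate 4) to 0.56 (without young control replicate 1). The difference of 0.13 between SVF-treated and old control ranged from 0.01 (without old control replicate 2) to 0.36 (without old control replicate 4). The highest Nqo1 level of all, 50.7 CPM in old control replicate 4, came from the library with the lowest Hmox1 level.

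Gclc (ENSRNOG00000006302) encodes the catalytic subunit of glutamate-cysteine ligase, the rate-limiting enzyme of glutathione synthesis. It was at 38.3, 25.9, 28.8 and 28.7 CPM in young control replicates 1 to 4. Old control replicates 1 to 4 were at 41.9, 31.3, 33.6 and 40.8 CPM, and old SVF-treated replicates 1 to 4 at 47.0, 20.3, 34.1 and 39.9 CPM. The SVF-treated group held both the highest and the lowest library, replicates 1 and 2. Means were 30.4 ± 5.39 CPM in young control, 35.3 ± 11.3 in old SVF-treated and 36.9 ± 5.25 in old control (SD, n = 4), with overlap between all groups. With the log2 number of tested genes at 0, Gclc had r = -0.595 over the 12 libraries (permutation p = 0.0406, adjusted over 7 genes 0.142). The ratio of old to young control was 1.21 (95% interval 0.856 to 1.71, edgeR adjusted p = 0.9998). SVF-treated against old control gave 0.959 (95% interval 0.681 to 1.35), a log2 fold change of -0.06 that became 0.13 without old SVF-treated replicate 2.

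The age comparison, old against young control, had 5 of 7 members with a positive log2 fold change and a median over the members of 0.28. Over all tested genes 48.7% were positive and the median was -0.01. By edgeR's quasi-likelihood test 0 of 7 members were called, where 0.04% of all tested genes were called. At an unadjusted p under 0.05 there was 1 member, Cat, and 5.34% of all genes. DESeq2 and limma voom with sample quality weights also called 0 members.

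Injection of SVF cells, old SVF-treated against old control, left 4 of 7 members with a positive log2 fold change and a median of 0.07, against 49.5% and a median of -0.0033 over all genes. Here edgeR called 0 of 7 members and 0% of all genes, and at an unadjusted p under 0.05 there were 0 members and 2.94% of all genes. DESeq2 and limma voom called 0 members as well. The smallest unadjusted p of a member was 0.498, and 0 of 7 members had libraries that did not overlap, against 2.42% of all genes. Apart from Hmox1, the 95% intervals of this comparison reached at most 1.61-fold upward (Nqo1) and 0.681 of the control level downward (Gclc).

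Old SVF-treated against young control, which differ in age and treatment at once, had 6 of 7 members with a positive log2 fold change and a median of 0.22, with 49.2% of all genes positive. Again edgeR, DESeq2 and limma voom called 0 members, where edgeR called 0.064% of all genes, and at an unadjusted p under 0.05 there were 0 members by edgeR and 7.11% of all genes. In 0 of 7 members were the libraries of the groups apart, against 4.65% of all genes. This comparison shares its young libraries with the age comparison, so the 2 are not independent. With both old groups as one mean, 6 of 7 were positive with a median of 0.25, and 48.2% of all genes were positive. In that comparison edgeR, DESeq2 and limma voom called 0 members, where edgeR called 0.112% of all genes, and 1 member (Cat) and 6.92% of all genes had an unadjusted p under 0.05.

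**Figure D2:**
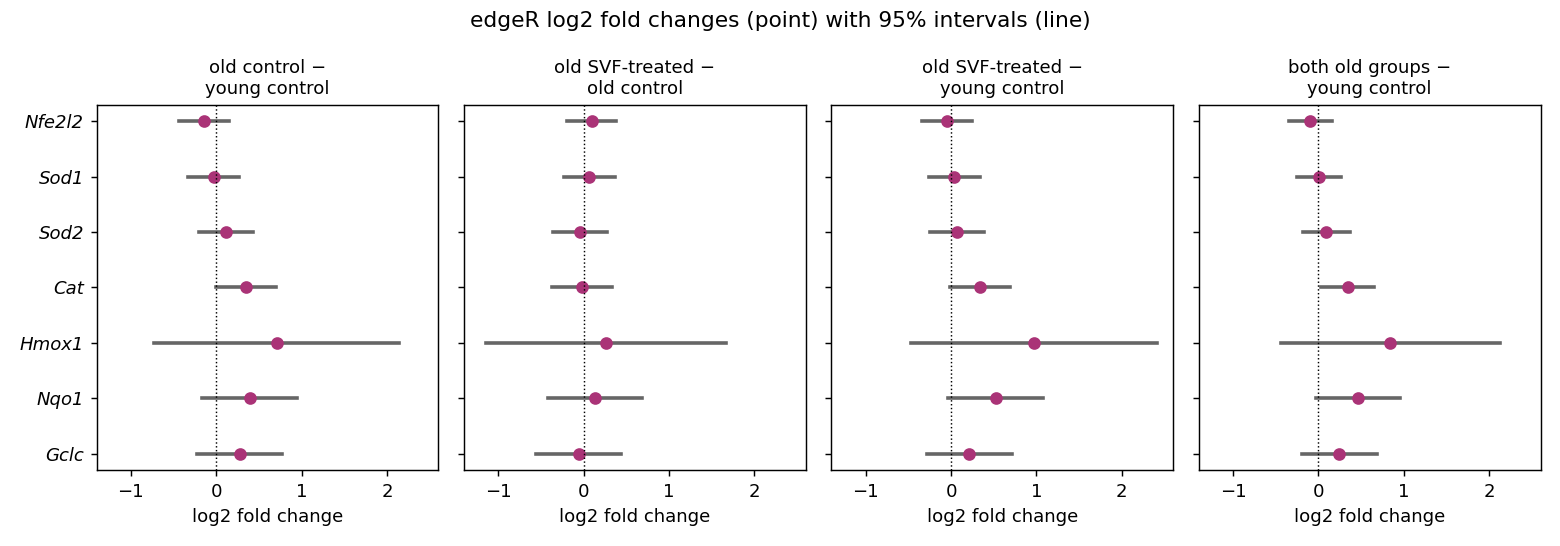
Log2 fold changes (horizontal axis, point) with 95% intervals (line) of the 7 genes in 4 comparisons from one edgeR fit. The intervals of Nfe2l2, Sod1 and Sod2 are narrow and span 0 in each panel, those of Hmox1 are wide, and the interval of Cat lies above 0 for old control against young control and for both old groups against young control.

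The share of each gene's variance in log2 CPM that lay between the 3 groups was 30.3% for Cat, 29.9% for Nqo1, 20.9% for Nfe2l2, 13.2% for Hmox1, 12.5% for Gclc, 5.00% for Sod2 and 4.16% for Sod1. The median over all tested genes was 15.7%. The biological coefficient of variation that edgeR estimated within groups was 15.3% for Nfe2l2 and 15.8% for Sod1, below the trend at their abundance (18.4% and 18.2%). For Hmox1 it was 64.9%, above a trend of 55.8%.

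Whether the enzymes followed their regulator from library to library was examined in 6 correlations with Nfe2l2 over the 12 libraries. The libraries share the scaling and 3 groups. The highest Pearson r was with Hmox1, 0.501 (permutation p = 0.0915, adjusted over 6 relations 0.549), with a Spearman rho of 0.231 (permutation p = 0.471, adjusted 0.652). Without the 2 libraries farthest from the median of Nfe2l2, r fell to 0.204. Without the 2 farthest from the median of Hmox1, old control replicates 4 and 1, it was 0.00152. With the log2 number of tested genes at 0, Hmox1 had r = -0.600 and Nfe2l2 r = -0.436. The part of that number in this correlation was not tested. Nqo1 ran the other way, with r = -0.324 (permutation p = 0.303, adjusted 0.606), rho = -0.280 (permutation p = 0.381, adjusted 0.652) and r = -0.346 without the 2 farthest libraries. Gclc had r = 0.164 (permutation p = 0.611, adjusted 0.676) and rho = 0.203 (permutation p = 0.530, adjusted 0.652), and r = 0.369 without the 2 farthest libraries. Sod2, Cat and Sod1 had r of 0.328, 0.135 and -0.210, with rho of 0.336, 0.133 and -0.196 and permutation p-values, adjusted over the 6 relations, of 0.606 or more. With the group means removed the largest r was again with Hmox1, 0.555 (permutation p = 0.265, adjusted 0.398). None of the 6 was detectable with 12 libraries.

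All 21 pairs of members were then compared, a step chosen after the values were seen. Cat and Sod2 had the highest correlation, with r = 0.790 (permutation p = 0.00282, adjusted over 21 pairs 0.0592) and a Spearman rho of 0.818 (permutation p = 0.00184, adjusted 0.0386). With group means removed, r was 0.825 (permutation p = 0.0017, adjusted 0.0357) and rho was 0.832 (permutation p = 0.00217, adjusted 0.0456). Old SVF-treated replicate 2, with the most tested genes at 0, was the lowest library for both genes. With the log2 number of such genes, Cat had r = -0.396 (permutation p = 0.2, adjusted over 7 genes 0.281) and Sod2 the r of -0.521 given above, and their part in this correlation was not tested. Without the 2 libraries farthest from the median of Sod2, which were old SVF-treated replicate 2 and old control replicate 4, r was 0.818. Leaving out each library in turn gave r between 0.714 and 0.877. By correlation with Sod2, Cat ranked 32 among 11592 genes with a mean of at least 2 CPM, and by correlation with Cat, Sod2 ranked 43.

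Cat and Gclc came next, with r = 0.672 (permutation p = 0.0169, adjusted over 21 pairs 0.178) and rho = 0.692 (permutation p = 0.0163, adjusted 0.171). Without the 2 libraries farthest from the median of Cat, old SVF-treated replicate 2 and young control replicate 4, r was 0.381. With group means removed r was 0.622 (permutation p = 0.188). Gclc ranked 236 among the 11592 genes by correlation with Cat. Sod1 and Sod2, the cytosolic and mitochondrial dismutases, had r = -0.0368 (permutation p = 0.908) and rho = 0.119 (permutation p = 0.715). That value was set by young control replicate 2 and old control replicate 1, and was 0.660 without them, which are the 2 libraries farthest from the median of Sod1. Sod1 was at 389 and 391 CPM in these libraries, its lowest levels of the 12, while Sod2 was among its highest.

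**Figure D3:**
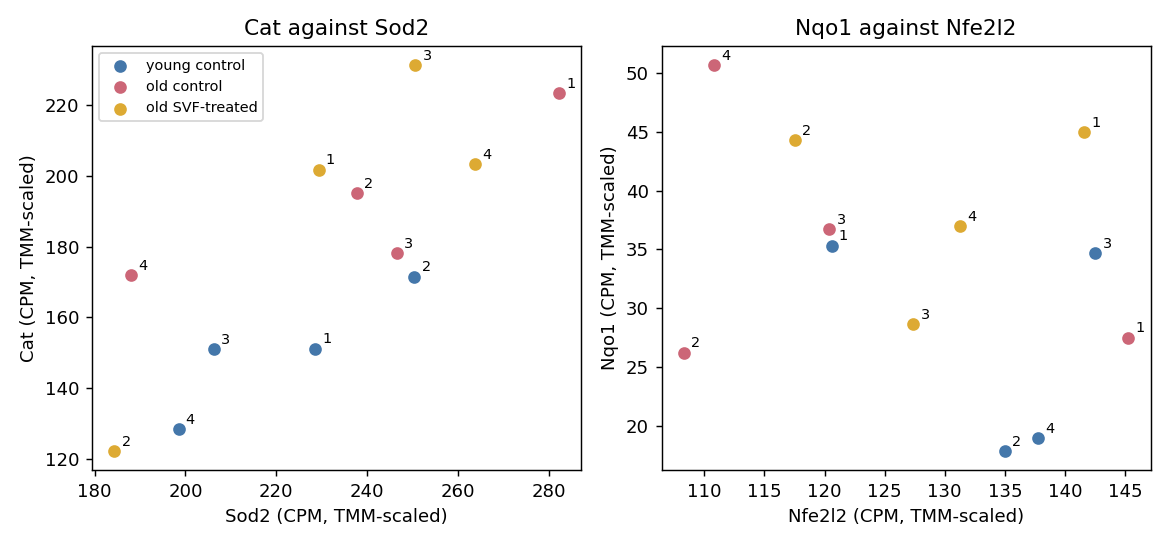
Level of Cat against Sod2 (left) and of Nqo1 against Nfe2l2 (right), in CPM, 1 point per library with its replicate number, coloured by group. Cat and Sod2 increase together (r = 0.790 on log2 CPM), with old SVF-treated replicate 2 at the bottom left, while Nqo1 shows no rise with Nfe2l2 (r = -0.324).

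**Figure D4:**
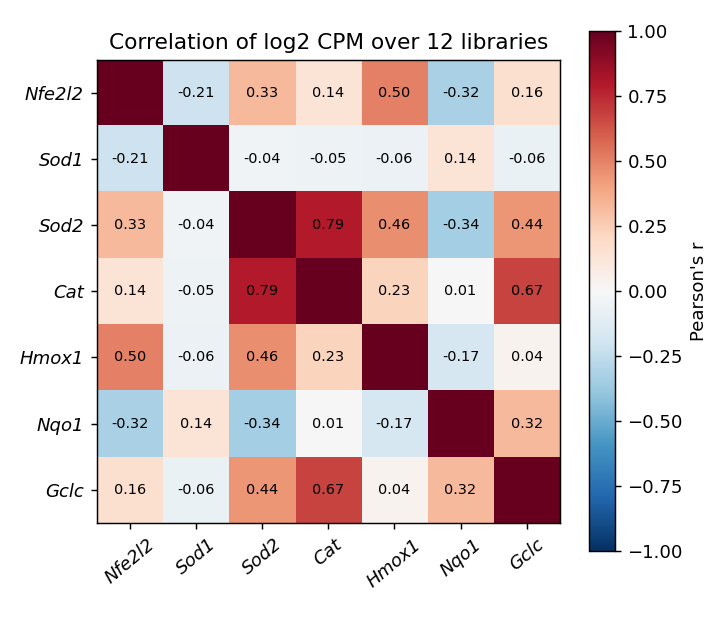
Pearson correlation of log2 CPM between the 7 genes over 12 libraries, from -1 (blue) to 1 (red). The pair of Sod2 and Cat is the darkest red off the diagonal, and the row of Sod1 is pale throughout.

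Because Cat and Sod2 varied together, the 250 bases before their annotated starts are shown, from RefSeq on build GRCr8. The counts were made on rn6, and no binding was measured here. The windows are chr3:110329527-110329776 for Cat and chr1:50050169-50050418 for Sod2, both on the minus strand and written 5′ to 3′ in the direction of the gene. Capitals mark CCAAT and GGGCGG on either strand (ATTGG and CCGCCC), 2 motifs common in promoters that do not overlap each other here and were chosen after the values were seen.
Cat: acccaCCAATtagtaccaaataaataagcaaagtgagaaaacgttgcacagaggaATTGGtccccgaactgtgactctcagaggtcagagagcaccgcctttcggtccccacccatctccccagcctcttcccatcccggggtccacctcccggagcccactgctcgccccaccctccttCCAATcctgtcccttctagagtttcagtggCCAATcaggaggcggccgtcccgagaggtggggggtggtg
Sod2: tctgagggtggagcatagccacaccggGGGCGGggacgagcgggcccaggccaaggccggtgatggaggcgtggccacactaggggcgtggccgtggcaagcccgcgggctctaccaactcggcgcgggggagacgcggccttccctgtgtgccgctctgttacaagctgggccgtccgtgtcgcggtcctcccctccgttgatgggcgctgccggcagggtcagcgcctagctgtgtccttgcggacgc
The Cat window held 4 matches to CCAAT and 0 to GGGCGG, and the Sod2 window 0 and 1. Over 33469 windows of this length, 34.0% held CCAAT and 30.5% held GGGCGG. Neither motif was in both windows, and shared control of the pair was not tested.

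Core letters of the antioxidant response element, TGACNNNGC on either strand, were looked for in the 300 bases around the start of each gene. RefSeq windows were at hand for 6 of the 7 genes, all but Hmox1, and 2 of the 6 held a match, where 12.1% of 33469 windows did. The matches are shown in capitals with up to 10 bases to each side, at chr1:50050185-50050213 for Sod2 and chr3:81028950-81028971 for Nfe2l2 (GRCr8, minus strand, written in the direction of the gene).
Sod2: ggcgctgccgGCAGGGTCAgcgcctagct
Nfe2l2: gactagccatTGACGCCGCctc
The Sod2 match began 35 bases before the annotated start and reads in reverse, and the Nfe2l2 match began 38 bases after it. The windows of Nqo1, Gclc, Cat and Sod1 did not hold these letters, which says nothing of elements farther away.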

How the data were processed

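Polyadenylated RNA of 12 libraries was analysed from the raw read counts per gene that the authors deposited. FastQC 0.10.1 (read quality), the build rn6 and HTSeq 0.10.0 (read counting) are named in the submitters' processing notes. No aligner, annotation release or strand setting is given in the sources used here, and overlapping or antisense genes may therefore share reads.

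The whole table was fitted with edgeR 4.0.16 (R 4.3.3) after filterByExpr (minimum count 10, minimum total 15), which left 12496 of 24600 genes, and TMM scaling. One model with group as its only term was tested by robust quasi-likelihood F tests in 4 contrasts, with Benjamini-Hochberg adjustment over 12496 genes and a threshold of 0.05. Standard errors were taken from the fold change and its F value. Log2 CPM used a prior count of 2. Correlations used 100000 permutations, within groups where group means were removed. Poisson intervals are exact at the 95% level and cover counting error only. The scripts were checked on simulated data.

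Alternatives were DESeq2 1.42.0, limma 3.58.1 voom with sample quality weights, other scalings, filters and thresholds, a replicate block, and leaving out libraries. The members, lists and tests were chosen with earlier results of these data known. The 7 symbols come from the rule that chose the IDs. The naming rule also asked for listed pathway genes, cell type markers and the genes most like each member in pattern, where a table gave their symbols. Of 24600 IDs, 0 matched a reference symbol, so no other gene is named and those lists were not run.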

Additional observations from a re-analysis of the deposited data

How the results depend on the processing

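The count of called members was 0 in each of the 4 comparisons under each alternative run, also at an adjusted p under 0.1. Scaling to library totals or by RLE moved each group mean by less than 1 SD. The old control mean of Hmox1, 7.09 CPM, was 3.48 CPM without young control replicate 3 and old control replicate 1, and 9.22 CPM without old SVF-treated replicate 2 and old control replicate 4. Member log2 fold changes kept their direction in 575 of 609 values, each for 1 member in 1 comparison under 1 alternative. These values share libraries and are not independent. Changed signs belonged to Hmox1 or to values near 0. With 1 or 2 libraries left out, log2 fold changes of SVF-treated against old control ranged from -0.129 to 0.142 for Cat, -0.231 to 0.186 for Gclc, -0.13 to 1.28 for Hmox1, -0.00776 to 0.137 for Sod1 and -0.14 to 0.0543 for Sod2. For old against young control they ranged from -0.405 to 1.1 for Hmox1 and -0.108 to 0.11 for Sod1. Sod1 ranged from -0.04 to 0.102 for SVF-treated against young control and from -0.074 to 0.106 for both old groups. Cat in SVF-treated against old control was 0.00118 with library totals alone. By limma voom with sample quality weights, Cat (0.0646) and Gclc (0.0917) in that comparison, Sod1 in old against young control (0.00966) and Nfe2l2 in SVF-treated against young control (0.00336) changed sign. The cause was not tested. Correlations with Nfe2l2 ranged from -0.0934 to 0.45 for Sod2, -0.0566 to 0.289 for Cat and -0.00948 to 0.328 for Gclc with libraries left out. They did not pass the correction in any of these refits.

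Counts of called genes over the whole table moved more, and the cause was not tested. Old against young control went from 5 genes to 30 by DESeq2, 17 by limma voom and 8 at an adjusted p under 0.1. SVF-treated against young control went from 8 to 57, 33 and 25, to 15 with no filter on low counts and to 3 with only the groups compared. Both old groups against young control went from 14 to 70, 48 and 35. With libraries left out the counts ranged from 0 to 33, 0 to 33 and 4 to 106, with the highest of each without young control replicate 3 and old control replicate 1. For both old groups, a fit of only the groups compared is the same model and was not run.

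Replicate numbers are shared between groups in the labels, and 0 of 12 same-numbered pairs had deviations correlated above 0.1 (-0.00562 to 0.0903). The highest were the pairs of replicate 1 (0.05, 0.0845 and 0.0903). In each group replicate 1 had the fewest tested genes at 0 (112, 78 and 129). Replicate 3 had the next fewest (323, 191 and 313). Hmox1 and Gclc were highest in replicate 1 of each group. Whether the replicate number marks a shared batch was not tested. Of 12 libraries, 5 correlated best with their own number among the libraries of the other groups. The count expected by chance was not worked out. With the replicate number as a block, 0 members were called, and the whole table gave 7, 0, 2 and 10 genes in the 4 comparisons.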
